A study of Mus musculus with 2 samples.

Results

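The GDNF family ligands and their receptors were described by 9 genes, chosen by name from the 43346 gene rows of each library. They are the ligand genes Gdnf, Nrtn, Artn and Pspn, the co-receptor genes Gfra1, Gfra2, Gfra3 and Gfra4, and the receptor gene Ret. All 9 had a row in both libraries. Total RNA was sequenced from neural tubes, from which brain and spinal cord form, of mouse embryos of the strain B6NCrl at an age of 14.5 days. There was 1 group of 2 libraries, untreated and with no genotype named beyond the strain. Replicate 1 came from the tube of the first pup of pregnant female 1 and replicate 2 from that of the first pup of pregnant female 2, while the sex is labelled as a pool of males and females. Each library was made from 10 ng of RNA with spike-in RNA added.

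GDNF family ligands are secreted survival and guidance factors related to the TGF-β superfamily. Each binds by preference a GFRα protein held in the membrane by a lipid anchor: GDNF binds GFRα1, neurturin GFRα2, artemin GFRα3 and persephin GFRα4. The complex then activates Ret, a receptor tyrosine kinase that spans the membrane. In the embryo the system is best known for the survival of motor, sensory and sympathetic neurons, for the enteric nervous system and for budding of the kidney duct.

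Gene counts summed to 32255363 in replicate 1 and 25428747 in replicate 2. Levels are in TPM (transcript abundance scaled by length and depth, so that genes can be compared), as mean ± SD of both libraries (n = 2), and with 1 group no contrast between conditions exists and no p-value is given. Differences between the libraries are ratios of replicate 2 to replicate 1 of rounded expected counts scaled by TMM, a method that centres most genes at no difference. Their 95% intervals, exact for the pair of counts, cover counting error only. All 8 genes of the neuron list reached 1 TPM in both libraries (sums of 4754.09 and 4576.75 TPM), as did 7 of 8 progenitor genes (2037.95 and 2131.34). Among protein-coding genes, 60.8% reached 1 TPM in both libraries. Of the neuron and progenitor genes, 0 differed by 2-fold. Among all genes averaging 10 counts or more, 5.58% were at least 2-fold higher in replicate 2 and 3.11% at least 2-fold lower. In bulk tissue, fewer cells of a type and less RNA per cell cannot be told apart.

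In sum, receptor transcripts were far more abundant than ligand transcripts in both tubes. Gene by gene this did not always hold: in replicate 1 Gfra3, at 1.51 TPM, lay below the ligand gene Nrtn, at 2.30. So did Gfra4 there by transcript models with a coding sequence alone, at 2.07 TPM. The 4 co-receptors summed to 119.59 TPM in replicate 1 and 132.53 in replicate 2 (126.1 ± 9.15), Ret stood at 11.9 and 20.4 (16.1 ± 5.99), and the 4 ligands summed to 3.72 and 2.55 (3.14 ± 0.827). Co-receptor transcripts therefore outnumbered ligand transcripts 32.1 to 1 in replicate 1 and 52.0 to 1 in replicate 2. By transcript models with a coding sequence alone, which leave out most Gfra4 signal, the ratios were 19.2 and 36.9. Per Ret transcript there were 10.1 and 6.51 co-receptor transcripts (8.28 ± 2.51), and 0.313 and 0.125 ligand transcripts (0.219 ± 0.133). Of the 9 genes, 6 reached 1 TPM in both libraries: Nrtn, the 4 co-receptors and Ret. Among all gene rows 34.7% did so, and among protein-coding genes 60.8%.

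**Figure D1:**
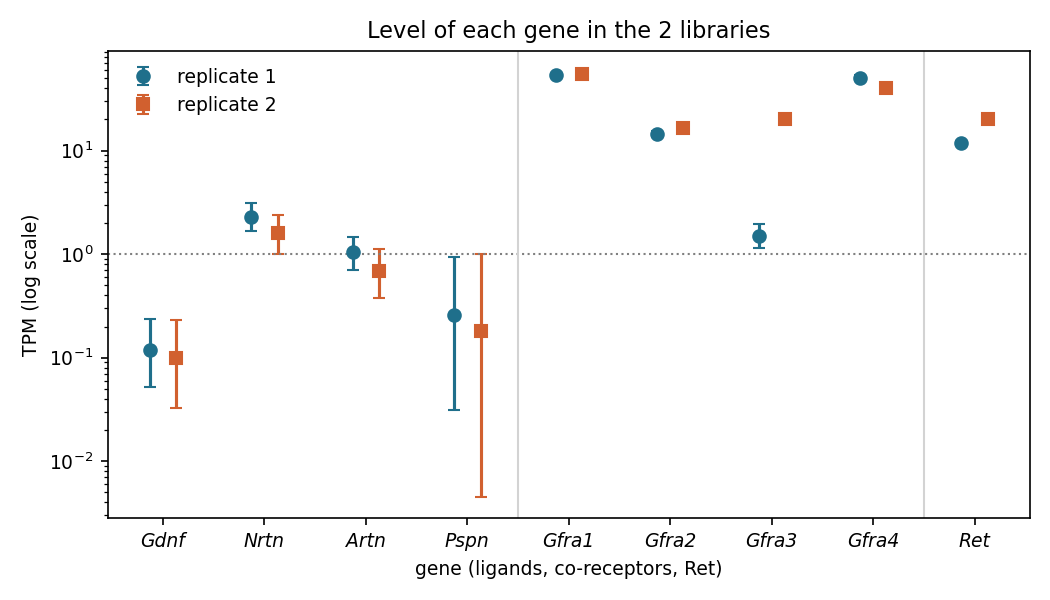
Level of each gene in TPM (log scale) in replicate 1 (circles) and replicate 2 (squares), ordered as ligands, co-receptors and Ret. Bars are exact Poisson 95% intervals of the count on the TPM scale and the dotted line marks 1 TPM. Gfra1 and Gfra4 lie highest, Gdnf lowest, and Gfra3 is the gene whose libraries lie farthest apart, at 1.51 and 20.3 TPM.

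Nrtn, the gene of neurturin, was the most abundant ligand gene. It stood at 2.30 TPM in replicate 1, from 43 counts, and at 1.59 TPM in replicate 2, from 22 counts (1.95 ± 0.502). Both values lie above 1 TPM, although the exact Poisson interval of replicate 2 reaches down to 0.996. The gene lies at chr17:56751325-56757530 on the minus strand of GRCm38, and 41.4% of protein-coding genes had a lower mean level. Its ratio was 0.652 (interval from 0.369 to 1.11), an interval that contains 1.

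Artn, which encodes artemin, a factor for sensory and sympathetic neurons, lay on either side of 1 TPM. It stood at 1.04 TPM in replicate 1 (31 counts) and 0.68 TPM in replicate 2 (15 counts), a mean of 0.86 ± 0.255. The 2 Poisson intervals, from 0.707 to 1.48 and from 0.381 to 1.12, overlap. The ratio was 0.620 (from 0.307 to 1.17). The gene, at chr4:117926162-117929763 on the minus strand, has 4 models in the files. The deposited TPM share of the coding model Artn-202, of 6 exons, was 100% in both libraries, but its posterior mean share was 71.08% and 54.17%, so the split between models is uncertain at these counts.

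Pspn, which encodes persephin, was at the limit of detection. It had 2 counts in replicate 1 (0.26 TPM) and 1 count in replicate 2 (0.18 TPM), under the 3 counts that a count of 0 would still allow, which correspond to 0.39 and 0.54 TPM for this short gene. No fold is given for it. It lies at chr17:56999457-57000018, minus strand, on the same chromosome as Nrtn.

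Gdnf, the founding ligand and a survival factor for motor neurons that muscle and Schwann cells are known to make, had the lowest level of the family. It stood at 0.12 TPM in replicate 1 (8 counts) and 0.10 TPM in replicate 2 (5 counts), or 0.11 ± 0.0141. Its Poisson intervals, from 0.0518 to 0.236 TPM and from 0.0325 to 0.233 TPM, overlap those of Pspn in both libraries, so the order of these 2 genes is within counting error. Gdnf lies at chr15:7810846-7837575 on the plus strand.

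Gfra1 had the highest level of the family in both libraries. It stood at 53.2 TPM in replicate 1 (4194 counts) and 55.4 TPM in replicate 2 (3238 counts), a mean of 54.3 ± 1.58 that exceeded the mean of 85.2% of protein-coding genes. Its ratio was 0.978 (from 0.934 to 1.02), so its libraries differed by no more than counting error allows after TMM scaling. Gfra1 made up 44.5% of the co-receptor sum in replicate 1 and 41.8% in replicate 2, or 74.7% and 58.8% by coding models alone. Set against its preferred ligand, it was 443 times the level of Gdnf in replicate 1 and 554 times in replicate 2, ratios that rest on the 8 and 5 counts of Gdnf.

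Transcripts of Gfra1 (chr19:58235604-58455909, minus strand) came mainly in 2 coding forms that differ by a 15-base coding exon, chr19:58392573-58392587. The longer, Gfra1-201, has 468 codons and the shorter, Gfra1-203, has 463. They correspond to the forms known as GFRα1a and GFRα1b. The models also differ elsewhere, with 11 exons and 4641 bases for Gfra1-201 and 9 exons and 4415 bases for Gfra1-203. Their estimated shares thus need not rest on the 15 bases. The stretches below show the exon in capitals with 24 bases on either side, because the forms differ there in coding sequence. They are from the GENCODE release 21 transcripts (GRCm38, 5′ to 3′ along the transcript).
Gfra1-201: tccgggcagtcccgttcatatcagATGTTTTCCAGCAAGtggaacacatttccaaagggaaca
Gfra1-203: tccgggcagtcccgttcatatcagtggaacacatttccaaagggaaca

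Gfra1-201 stood at 35.25 TPM in replicate 1 and 30.19 in replicate 2, and Gfra1-203 at 9.40 and 16.58. The model with the exon was thus assigned the higher level in both libraries. Among the 4 full coding models, those without the exon held 21.1% in replicate 1 and 35.1% in replicate 2 (28.1 ± 9.90%), and those with it 78.9% and 64.9%. The authors' credibility bounds for Gfra1-203, from 5.25 to 12.91 TPM and from 10.68 to 19.65 TPM, overlap between the libraries. They bound the TPM of the model and not its share. Whether exon use differed between the 2 tubes was not tested. A further 16.1% and 14.1% of the gene's TPM was assigned to Gfra1-204, an incomplete model of 841 bases that does not distinguish the forms.

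The last 444 bases of Gfra1 overlap an antisense gene on the plus strand, Gm16277 (chr19:58204139-58236047). It had 54 counts (4.72 TPM) and 62 counts (7.35 TPM). The strand setting of the counting is not given in the sources used here, so reads from the overlap cannot be told apart between the 2 genes, but the antisense counts are few beside those of Gfra1.

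Gfra4, the persephin co-receptor gene (chr2:131039632-131043088, minus strand), ranked next at the level of the gene. It stood at 50.4 TPM in replicate 1 (1241 counts) and 40.4 in replicate 2 (757 counts), a mean of 45.4 ± 7.07, and the libraries do not overlap those of Gfra1 or of Ret. Its ratio was 0.773 (from 0.705 to 0.846), and 15.5% of all genes tested had a ratio as low or lower. When scaled by the spike-ins the ratio was 1.13, on the other side of 1.

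Nearly all of that signal was assigned to models of Gfra4 that carry no coding sequence. The retained-intron models Gfra4-207 and Gfra4-208 stood at 14.02 and 34.34 TPM in replicate 1 and at 13.39 and 24.97 TPM in replicate 2, together 95.9% and 94.9% of the gene's TPM (95.4 ± 0.718%). The 6 coding models summed to 2.07 TPM in each library, from 46.2 and 34.3 expected counts. Counted by coding models alone, an alternative chosen after seeing the data, Gfra4 would take the fifth place in the family in place of the second, at a level near that of Nrtn. The co-receptor sum would then be 71.24 and 94.16 TPM, or 5.99 and 4.62 per Ret transcript. A microRNA gene, Mir6973b, lies within Gfra4 over 80 bases and had 0 counts in both libraries.

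**Figure D2:**
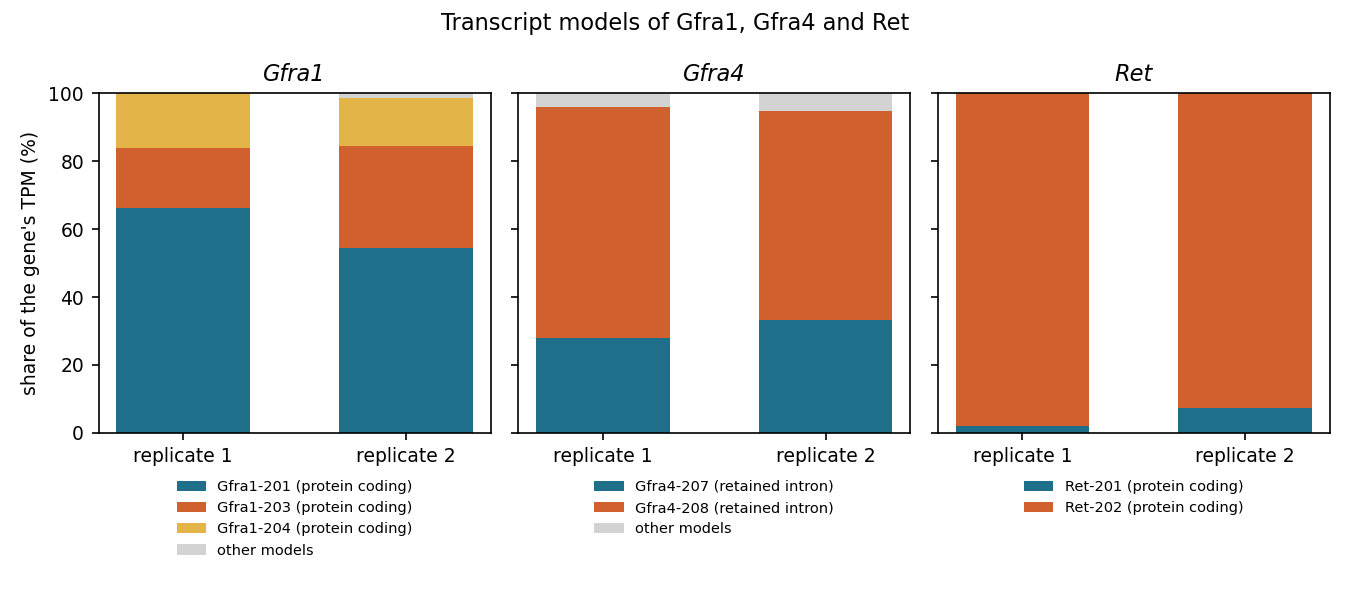
Share of each gene's TPM (%) by transcript model for Gfra1, Gfra4 and Ret, 1 stacked bar per library. Gfra1-201, with the 15-base exon, leads Gfra1, the 2 retained-intron models hold 95.9% and 94.9% of Gfra4, and Ret-202 holds 97.9% and 92.7% of Ret.

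Gfra2, whose protein prefers neurturin, was similar in both tubes after TMM scaling. It stood at 14.5 TPM in replicate 1 (986 counts) and 16.35 TPM in replicate 2 (823 counts), or 15.4 ± 1.33, from a single coding model of 9 exons at chr14:70890120-70979838 on the plus strand. Its ratio was 1.06 (from 0.962 to 1.16), and 1.55 when scaled by the spike-ins. Gfra2 held 12.1% and 12.3% of the co-receptor sum, or 20.3% and 17.4% by coding models alone. It exceeded Nrtn 6.29 times in replicate 1 and 10.3 times in replicate 2.

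Gfra3, the artemin co-receptor gene, was the one gene of the family that differed by more than 2-fold between the libraries. It had 58 counts in replicate 1 (1.51 TPM) and 576 counts in replicate 2 (20.3 TPM), so the mean of 10.9 ± 13.3 describes neither tube. The Poisson intervals, from 1.15 to 1.95 TPM and from 18.7 to 22.1 TPM, are far apart. Its ratio was 12.5 (from 9.59 to 16.8), a log2 ratio of 3.64, and 118 of 17623 genes tested (0.67%) reached it. The gene lies at chr18:34689898-34720387 on the minus strand and has a single coding model in the files.

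With Gfra3 the make-up of the co-receptors differed between the tubes. Its share of their summed TPM was 1.3% in replicate 1 and 15.3% in replicate 2, whereas that of Gfra4 was 42.2% and 30.5%. The Gfra4 share rests on the retained-intron models: by coding models alone it was 2.9% and 2.2%, and that of Gfra3 was 2.1% and 21.6%. Against Artn, its preferred ligand gene, Gfra3 stood at 1.45 times in replicate 1 and 29.9 times in replicate 2, and against Ret at 0.127 and 0.999 times. In replicate 2 there was thus about 1 Gfra3 transcript per Ret transcript.

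Ret, the shared signalling receptor, was also higher in replicate 2, by less than 2-fold. It stood at 11.9 TPM in replicate 1 (1739 counts) and 20.4 TPM in replicate 2 (2179 counts), and 64.8% of protein-coding genes had a lower mean. Its ratio was 1.59 (from 1.49 to 1.69), reached by 9.16% of all genes tested. Under spike-in scaling the ratio was 2.32, past 2-fold.

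Forms of Ret are known that differ in the tail of the kinase, RET9 and RET51, named for the number of residues that end them. Their coding ends are shown because the forms are named for them. In lower case are 24 bases of the shared exon, and in capitals the end of each coding sequence, stop codon included. Both are from GENCODE release 21 (GRCm38, 5′ to 3′ along the transcript). The capitals hold 32 bases of Ret-202 and 158 of Ret-201, so the estimates for whole models need not rest on them. The capitals of Ret-202 lie at chr6:118155256-118155287 and code for 9 residues, and those of Ret-201 at chr6:118153853-118154010 and code for 51, both in the gene at chr6:118151745-118197718 on the minus strand.
Ret-202: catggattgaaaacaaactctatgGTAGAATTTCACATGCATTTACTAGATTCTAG
Ret-201: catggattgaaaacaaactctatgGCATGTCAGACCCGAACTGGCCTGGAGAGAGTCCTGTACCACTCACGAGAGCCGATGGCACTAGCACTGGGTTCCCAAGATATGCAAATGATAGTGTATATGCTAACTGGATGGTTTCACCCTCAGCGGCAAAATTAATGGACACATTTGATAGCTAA

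The model of the short-tailed form was assigned almost all Ret transcripts. Ret-202, of 1073 codons, stood at 11.64 TPM in replicate 1 and 18.87 in replicate 2, or 97.9% and 92.7% of the gene. Ret-201, of 1115 codons, stood at 0.25 and 1.49 TPM, from 30.2 and 133.0 expected counts (4.7 ± 3.69% of the gene). The authors' bounds for Ret-201, from 0.02 to 0.81 TPM and from 0.59 to 2.67 TPM, overlap. They bound the TPM of the model and not its share. Whether the libraries differed in this form was not tested. The files give these models lengths of 7341 and 6064 bases and release 21 gives 4497 and 5456, so the models that the authors counted are not in all parts those printed here, and the shares depend on the models.

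By mean level the family ran from Gfra1 through Gfra4, Ret, Gfra2, Gfra3, Nrtn, Artn and Pspn to Gdnf. The libraries of neighbours overlapped for Ret and Gfra2, for Gfra2 and Gfra3 and for Gfra3 and Nrtn, so those steps in the order are not resolved, nor is that from Pspn to Gdnf, whose counting intervals overlap. Of the 7 genes averaging 10 counts or more, 1 was at least 2-fold higher in replicate 2 (14.3%) and 0 at least 2-fold lower. Among all 17623 genes tested at that minimum, 5.58% were at least 2-fold higher and 3.11% at least 2-fold lower. The share higher falls with counts, from 12.5% at mean counts of 10 to under 100, which hold Nrtn and Artn, to 5.33% from 100 to under 1000, which hold Gfra2, Gfra3 and Gfra4, and 0.868% at 1000 or more, which hold Gfra1 and Ret. The median log2 ratio of the 7 genes was -0.03 and that of all genes tested -0.01.

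**Figure D3:**
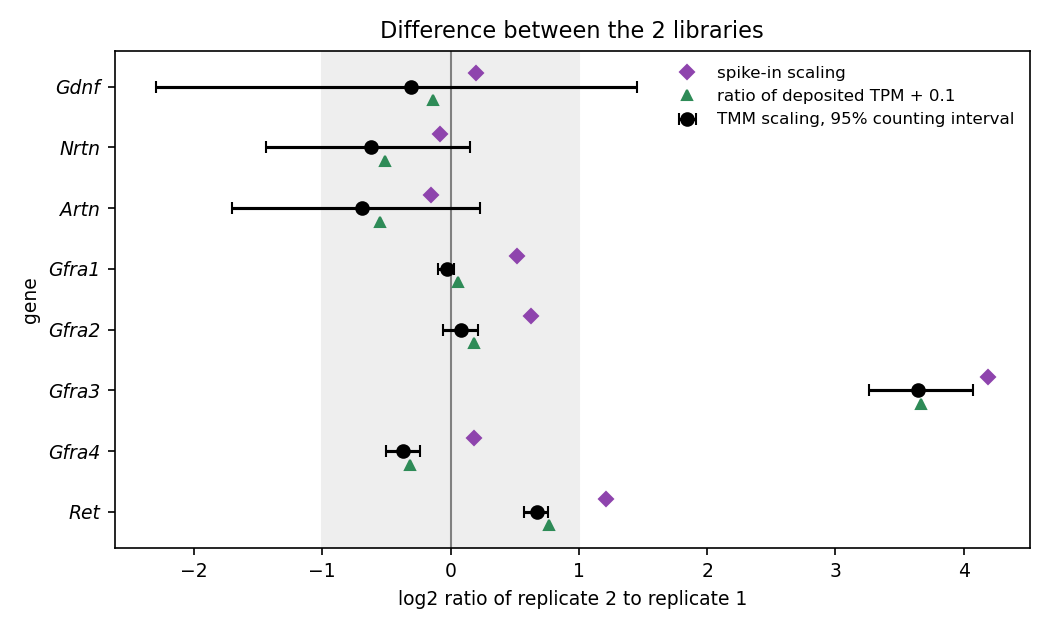
Log2 ratio of replicate 2 to replicate 1 for each gene but Pspn, whose counts are under the floor. Black points are TMM-scaled with exact 95% counting intervals, diamonds scaled by the spike-ins and triangles the ratio of deposited TPM plus 0.1, and the grey band spans less than 2-fold. Gfra3 lies beyond the band under each, at 3.64, 4.19 and 3.67, and Ret passes it under spike-in scaling alone, at 1.21.

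Spike-in scaling shifted the library sizes by 0.55 on the log2 scale (less in the ratios of genes with few counts, through the prior count), so directions near 0 hold only relative to other genes. With it Gfra1, Gfra4 and Gdnf turned from below to above 0, at 0.52, 0.18 and 0.20, while Nrtn and Artn remained below 0, at -0.08 and -0.15. The ratio of deposited TPM also put Gfra1 above 0, at 0.06.

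Genes with levels most like each family member in both libraries were sought among protein-coding genes, by distance in log2(TPM + 1) over the 2 libraries. Only 2 points enter each distance, so many genes match an ordinary pair of levels: 129 lay within 0.1 of Gfra1, with Atxn2l and Snapc3 nearest, 115 within 0.1 of Gfra2 (Gys1 and Pigh), 32 of Gfra4 (Mmp16 and Celf5), 21 of Nrtn (Rbm24 and Cdhr1) and 11 of Ret (Tgfb1i1 and Pycr1). Gfra3 had 0 genes within that distance. Its nearest were Aebp1, a gene of the extracellular matrix (1.39 and 22.62 TPM), at 0.163, and Th, the tyrosine hydroxylase of catecholamine neurons (1.31 and 22.36 TPM), at 0.178.

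Other receptors and cofactors of the pathway were looked up alongside the family. Of 6 such genes, 4 reached 1 TPM in both libraries, as did 60.8% of protein-coding genes. Of the 4 with enough counts, 0 differed by 2-fold, where 5.58% of all genes tested were at least 2-fold higher and 3.11% lower. Both counts are near those shares, so they are no result about these genes. Ncam1, an adhesion molecule that serves as an alternative GDNF receptor, was the highest (246.53 and 320.91 TPM). The heparan sulphate proteoglycan gene Sdc3 stood at 66.0 and 68.0 TPM, the sorting receptor gene Sorl1 at 16.5 and 18.5, and Gas1, whose protein is related to the GFRα family, at 9.09 and 12.8. Gfral, which encodes the related receptor for GDF15, had 2 counts in replicate 1 and 0 in replicate 2.

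Most genes listed as adaptors and effectors of Ret reached 1 TPM in both libraries, as did 60.8% of protein-coding genes. Of 25 genes, 23 reached 1 TPM in both libraries, 2 were at least 2-fold higher in replicate 2 and 0 lower, with a median log2 ratio of -0.06. The highest were Pdlim7, whose protein binds the Ret tail (128.56 and 116.24 TPM), the PI3-kinase subunit gene Pik3r1 (104.22 and 91.68), the adaptor gene Grb2 (95.02 and 89.63) and the kinase gene Fyn (89.7 and 87.5). The adaptor genes Shc1 (3.23 and 15.45 TPM, 4.67-fold, from 3.96 to 5.56) and Dok2 (1.63 and 3.12 TPM, 2.46-fold, from 1.57 to 4.04) were the 2 that differed. The share of adaptors that were higher, 8.0%, is near the 5.58% of all genes tested, so it is no result about them.

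Of the 10 feedback and turnover genes, 0 differed by 2-fold. Among all genes tested 5.58% were at least 2-fold higher and 3.11% lower, so a count of 0 in 10 is no result about them. All 10 reached 1 TPM in both libraries, against 60.8% of protein-coding genes, and their median log2 ratio was 0.18. The phosphatase gene Ptprf (32.5 and 46.0 TPM), the signalling inhibitor gene Spry2 (31.6 and 30.0), the ERK phosphatase gene Dusp6 (15.7 and 22.3) and the ubiquitin ligase gene Cbl (14.35 and 17.05) were the highest.

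Among transcription factors placed upstream or downstream of Ret, 8 of 11 reached 1 TPM in both libraries. That is near the 60.8% of protein-coding genes that did so, and is no result about them. Of the 10 with enough counts, 4 stood at least 2-fold higher in replicate 2. The highest, Hoxb5 (41.6 and 40.2 TPM), Etv1 (11.1 and 24.2), Etv5 (14.5 and 21.4) and Etv4 (11.6 and 11.4), are a Hox factor and 3 ETS factors. The 4 that differed were Runx3, with 1 count against 25, Runx1 (0.46 and 5.29 TPM, 11.8-fold, from 8.67 to 17.0), Etv1 (2.13-fold) and the immediate early gene Egr1 (1.42 and 3.12 TPM, 2.02-fold). Runx1 and Runx3 are known from subtypes of sensory neurons. The median log2 ratio of the list was 0.45. Of all genes tested, 5.58% were at least 2-fold higher. The share was 12.5% at mean counts of 10 to under 100, which hold Runx3.

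**Figure D4:**
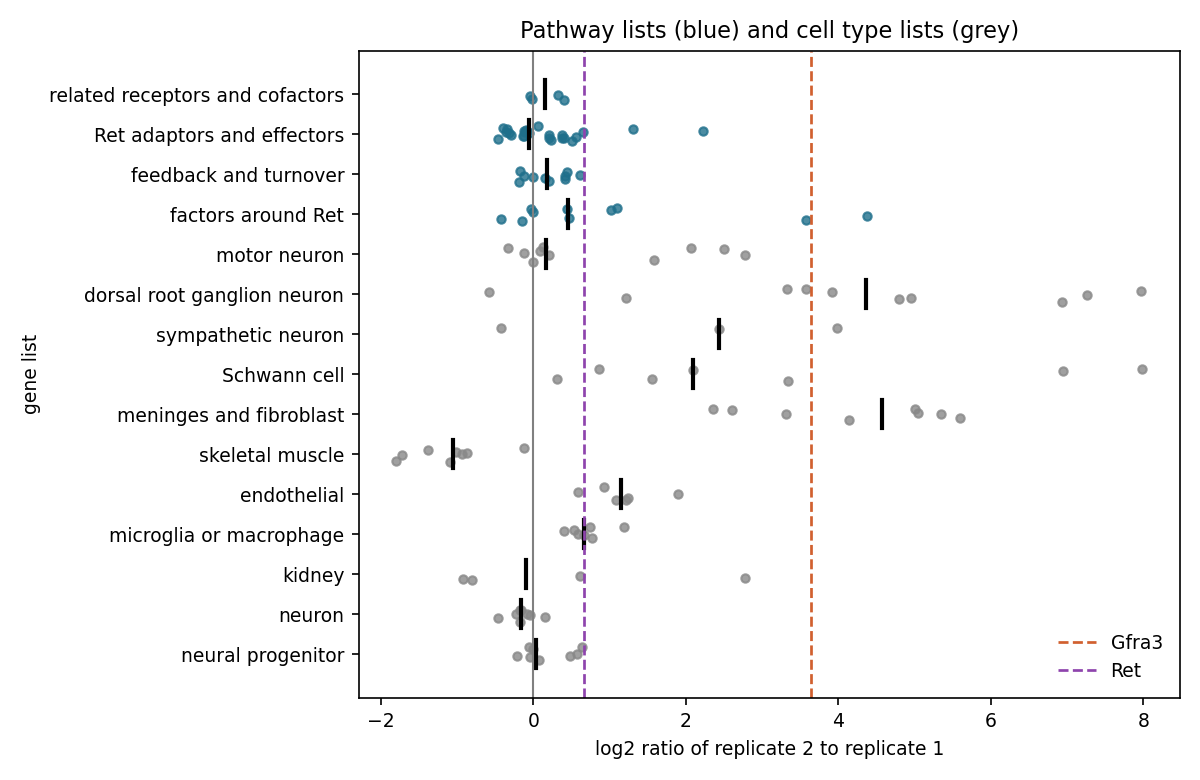
Log2 ratio of replicate 2 to replicate 1 (TMM) for each gene averaging 10 counts or more, by pathway list (blue) and cell type list (grey), with the list median as a black bar. The dashed lines mark Gfra3 (3.64) and Ret (0.67). The ganglion and meninges lists have medians of 4.36 and 4.57, and the neuron and progenitor lists of -0.17 and 0.03.

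Gfra3 is known from pain-sensing and sympathetic neurons and from Schwann cells, and Ret from motor, sensory and sympathetic neurons. Markers of dorsal root ganglion, Schwann cells and meninges were mostly higher in replicate 2, as were Gfra3 and Ret. Those of skeletal muscle were lower there (median log2 ratio -1.05). Whether any tissue had a part in the differences of Gfra3 and Ret was not tested. Counts in the marker lists can be set beside all genes tested, of which 5.58% were at least 2-fold higher and 3.11% at least 2-fold lower. Of 10 genes of dorsal root ganglion neurons, 9 stood at least 2-fold higher in replicate 2, with sums of 34.3 and 189.61 TPM and a median log2 ratio of 4.36. The exception was the peptide gene Calca, which was lower there (22.45 and 16.15 TPM, log2 ratio -0.58). In replicate 1 ganglion genes were thus under 1 TPM, except Calca and Scn9a, the latter named after its values were seen (8.87 and 18.86 TPM).

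Of the 3 sympathetic genes with enough counts, 2 were at least 2-fold higher, with sums over all 6 of 3.38 and 24.57 TPM, most of it Th in replicate 2. Phox2a was not among them (1.9 and 1.5 TPM), and Hand2 was at 0 counts in replicate 1 and 1 count in replicate 2. For Schwann cells, 5 of 7 genes passed 2-fold (sums of 15.4 and 50.2 TPM), and Cdh19 was at 0 in replicate 1. For meninges and fibroblasts all 8 genes passed 2-fold, with sums of 45.35 and 991.16 TPM.

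Of 10 motor neuron genes, 4 were at least 2-fold higher (sums of 140.62 and 447.43 TPM), and the median log2 ratio was 0.16. Those 4 were Prph, an intermediate filament gene (53.25 and 238.75 TPM), the homeobox genes Isl1 (23.6 and 70.2 TPM) and Isl2 (3.32 and 26.2 TPM), and Aldh1a2, an enzyme of retinoic acid synthesis (9.50 and 57.5 TPM). The other 6, Mnx1, Lhx3, Lhx4, Chat, Slc18a3 and Slc5a7, had log2 ratios from -0.33 to 0.20. All of the list but Prph and Isl1 were named after their values were seen. The list was thus divided, and which of its genes stand for motor neurons here was not tested.

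Blood vessel and immune genes were higher in replicate 2 as well, and muscle genes lower. Of 6 endothelial genes, 4 were at least 2-fold higher (sums of 67.5 and 161.93 TPM), as was 1 of 7 microglia or macrophage genes (85.97 and 151.67 TPM). Of 8 skeletal muscle genes with enough counts, 5 were at least 2-fold lower in replicate 2 and 0 higher, with sums over all 9 of 43.5 and 22.1 TPM. In the kidney list, another site of Ret, 2 of 7 genes reached 1 TPM in both libraries. Of the 4 with enough counts, 1 was at least 2-fold higher (sums over all 7 of 11.5 and 18.0 TPM). Six2, which marks kidney progenitors, was the only gene of the list at 0 in both libraries, and was named after its values were seen. The part of any of these cell types in the differences of Gfra3 and Ret was not tested.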

How the data were processed

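The genome build was mm10 and the annotation GENCODE release 4, per the texts deposited with the files. For the aligner, quantifier, versions and strand setting, the sources used here name none. Expected counts, as deposited, are estimates of reads on each gene or transcript before any normalisation. TPM and FPKM, as deposited, divide by effective length and by depth, per the file headers. Percent values deposited with the transcripts are shares of the gene, and the score columns deposited by the authors hold posterior SDs and credibility bounds whose level is not stated, per the file headers.

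Of 69691 rows, 43346 were genes. Rows that name no mouse gene (26248 numeric rows, 96 spike-ins and phiX) held 3.31% and 2.29% of counts and entered neither library sizes nor ratios. Symbols, coordinates (1-based) and transcript sequences came from GENCODE release 21 (GRCm38), by identifier without version. All 9 family genes matched.

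Expected counts were rounded. Ratios used TMM sizes (edgeR 4.0.16, R 4.3.3), a prior count of 0.5 and a mean count minimum of 10. Intervals are exact (Clopper-Pearson for ratios, Poisson for counts, 95%). Amplified reads are not independent molecules, so intervals and the 3-count floor reflect counting error alone. The ratio step was tested on simulated data. DESeq2 1.42.0, total counts, spike-ins, priors, thresholds, FPKM, posterior means and each library alone were alternatives. SciPy 1.17.1 gave the intervals, pandas 2.3.3 and NumPy 2.4.6 under Python 3.11.15 the joins, and matplotlib 3.10.9 the plots.

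The family members, the 4 pathway lists and the 11 marker lists were chosen with earlier results of these data known, so their directions are no independent support. Some genes, Runx1 and Phox2a among them, are in 2 lists. Named were all family members, the 4 highest genes and those past 2-fold of each pathway list, the 2 highest of a marker list where set beside a result, and the 2 nearest genes of each family member at 1 TPM or more. A gene that this rule names is not reported here, though list statistics include it.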

Additional observations from a re-analysis of the deposited data

How the results depend on the processing

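Spike-in scaling or a 1.5-fold threshold raised the genes at least 2-fold higher in replicate 2 from 1 to 2 (Ret joined), and 1.5-fold raised those lower from 0 to 2 (Nrtn and Artn). The co-receptor to Ret ratio was 5.31 by coding transcripts alone, an alternative chosen after seeing the data. By single libraries, the genes at 1 TPM numbered 6 to 7, the co-receptor to Ret ratio ran from 6.51 to 10.1 and the ligand to Ret ratio from 0.125 to 0.313. The other 31 alternatives of these results kept them within 1 SD or 1.5 times. For the mean ratios to Ret, a single library always lies within 1 SD of a mean of 2, so those alternatives could not fail. Within these limits, the 6 genes at 1 TPM became 4 at 2 TPM and at 1 FPKM. They became 7 at 0.5 TPM, at 10 counts in both libraries and by posterior mean TPM. No value of a ratio exists without 1 of the 2 libraries. Of the 9 log2 ratios, 5 left their counting interval under spike-in scaling (Gfra1, Gfra2, Gfra3, Gfra4 and Ret). Those of Nrtn (-0.62 to -0.08), Artn (-0.69 to -0.15) and Gdnf (-0.31 to 0.20) shifted about as far, within wider intervals. Under the other scalings and the larger prior count, 34 of 36 values stayed within the interval. By posterior mean TPM, 2 of 9 mean levels moved, Artn from 0.86 to 1.28 and Pspn from 0.22 to 0.36. No paired analysis was possible because there is only 1 group. Counts of 1 to 43 limit every statement on the ligands.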
